A study of Mus musculus with 16 samples.

Results

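The genes described are the class II chains of the mouse major histocompatibility complex that the deposited table lists, H2-Aa, H2-Ab1 and H2-Eb1, together with Cd74, the invariant chain. They were found by matching Ensembl gene identifiers to symbols, and all 4 were among the 831 genes in the table. The study sequenced RNA from the tibialis anterior, a fast muscle of the lower leg, taken at postnatal day 30. Its 16 libraries comprise 4 of mdx/miR-133b-/- muscle (genotype label mdx-/-;miR-133b-/-), 4 of mdx muscle (mdx-/-), 4 of miR-133b-/- muscle and 4 of Control muscle (Wild Type). The mdx mouse lacks dystrophin through a Dmd mutation and models Duchenne muscular dystrophy, and miR-133b is a muscle microRNA. The labels give no strain, sex or way of making the miR-133b allele. They do not say that each library is its own animal, so a p-value here covers only the spread among these libraries, part of which may be technical.

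Class II molecules are pairs of an alpha and a beta chain that carry peptides from endosomes to the cell surface and present them to CD4+ T cells. The invariant chain binds newly made pairs, blocks their groove and leads them to the endosome, where proteases such as cathepsin S cut it away. Macrophages, dendritic cells and B cells are the main cells that make these proteins, and resting muscle fibres make little. Macrophages are the most abundant immune cells of dystrophic muscle. Class II genes are transcribed together through conserved promoter elements, the X box, bound by the RFX complex, and the Y box, bound by NF-Y, on which the coactivator CIITA assembles.

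RefSeq promoter windows (GRCm38.p6, 250 bases before to 50 after the start of the gene) were given for H2-Aa and H2-Eb1. None was given for H2-Ab1 or Cd74. Any part of these promoter elements in the members' values was not tested. The H2-Aa window is chr17:34287774-34288073, read on the minus strand, and the H2-Eb1 window is chr17:34305617-34305916, on the plus strand. Capitals mark GCAAC, the core of the X box, and CTGATTGG, the Y box with its inverted CCAAT. Both motifs were chosen with these sequences in view, were searched on both strands, and do not overlap each other.
H2-Aa: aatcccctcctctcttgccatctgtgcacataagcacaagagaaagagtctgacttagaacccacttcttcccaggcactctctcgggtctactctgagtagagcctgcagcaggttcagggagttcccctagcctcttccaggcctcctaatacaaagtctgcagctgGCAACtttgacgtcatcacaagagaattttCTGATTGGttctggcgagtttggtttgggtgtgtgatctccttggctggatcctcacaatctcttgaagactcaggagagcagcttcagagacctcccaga
H2-Eb1: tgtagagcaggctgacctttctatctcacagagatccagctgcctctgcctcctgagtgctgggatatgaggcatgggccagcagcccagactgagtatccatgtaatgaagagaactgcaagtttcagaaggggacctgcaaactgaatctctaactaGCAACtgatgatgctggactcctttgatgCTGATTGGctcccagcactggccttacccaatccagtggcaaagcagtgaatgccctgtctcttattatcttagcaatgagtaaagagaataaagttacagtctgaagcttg
In each window GCAAC stands upstream of CTGATTGG on the gene's strand, with 25 bases between them in H2-Aa and 24 in H2-Eb1. CTGATTGG begins 51 bases before the start of H2-Aa and 62 bases before that of H2-Eb1. Over all 32851 mouse promoter windows of the same length, 35.2% hold GCAAC and 4.10% hold CTGATTGG. The pair in this order with at most 40 bases between occurs in 54 windows (0.164%), and in 1 of 846 windows of the other listed genes. A match describes these letters and is not evidence of binding.

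H2-Ab1, H2-Aa and H2-Eb1 are neighbours in the class II region of chromosome 17 (GRCm38, GENCODE M21). H2-Ab1, the beta chain that pairs with H2-Aa, spans 34257689 to 34269419 on the plus strand. H2-Aa spans 34282744 to 34287823 on the minus strand, and H2-Eb1, the beta chain of the second class II pair, spans 34305867 to 34316674 on the plus strand. The antisense gene Gm20513 overlaps the 5′ end of H2-Eb1, and whether counting used strand is not given, so reads of these genes cannot be told apart there.

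Cd74 lies apart from them on chromosome 18 (60803848 to 60812652, plus strand), and the annotated hairpin Mir5107 lies within it.

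The deposited values are gene counts multiplied by a library factor of the authors' own, called scaled reads below. Reads in the listed genes ranged from 2356990 to 6000033 per library, and the full depth is unknown. The listed genes are a selection: between mdx/miR-133b-/- and miR-133b-/- every one of them has means at least 1.72-fold apart. Dmd and the miR-133b locus are not listed, so no listed gene checks the genotypes. Of 12 fast-fibre genes 4 are listed (Myh4, Actn3, Ckm and Pvalb), and they summed to between 256312 and 730433 scaled reads per library, as a limb muscle should show. For 14 of the 16 libraries the description field points to a different sample, and groups follow the sample titles. Fewer cells of a type and less RNA per cell cannot be told apart in whole muscle.

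All 4 members stood several-fold higher in the muscles with the mdx mutation than in those without it. H2-Aa, the alpha chain, had 2348, 859, 1001 and 473 scaled reads in the mdx/miR-133b-/- libraries 1 to 4, and 2274, 2290, 2248 and 1244 in mdx. It had 149, 179.9, 275 and 446 in miR-133b-/-, and 287, 431, 255 and 290.3 in Control. Every library with the mdx mutation lay above every library without it. The listed genes were selected on mdx/miR-133b-/- against miR-133b-/-, which favoured that part of the split. Among the mdx/miR-133b-/- libraries the first matched the highest mdx libraries, while the other 3 lay below all 4 of mdx.

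H2-Ab1 had 835, 258, 314 and 360 scaled reads in mdx/miR-133b-/-, against 854, 741, 874 and 478 in mdx. In miR-133b-/- it had 195, 77.8, 55.2 and 189.5, against 126, 148, 116 and 116 in Control. As for H2-Aa, 3 of the mdx/miR-133b-/- libraries lay below all of mdx. The miR-133b-/- libraries fell on either side of Control, 2 above all 4 Control libraries and 2 below them.

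H2-Eb1 was the least abundant member in scaled reads, with 288, 123, 157 and 159 in mdx/miR-133b-/- and 344, 286, 310.1 and 223 in mdx. It had 26.0, 32.8, 26.5 and 57.8 in miR-133b-/- and 50.02, 75.8, 60.0 and 29.9 in Control. The lowest of these values rest on few molecules, since the first miR-133b-/- library held 26 reads of H2-Eb1.

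Cd74 had 1069.7, 364, 779.7 and 426 scaled reads in mdx/miR-133b-/-, against 984, 890.0, 1186 and 615 in mdx. It had 126, 83.5, 134 and 203 in miR-133b-/-, against 195, 269, 128 and 95.5 in Control. Here 2 of the mdx/miR-133b-/- libraries fell inside the mdx range and 2 below it. The order of the group means was mdx, mdx/miR-133b-/-, Control, miR-133b-/- for H2-Aa, H2-Eb1 and Cd74, while for H2-Ab1 miR-133b-/- stood at 129 ± 73.2 and Control at 127 ± 15.1 (SD, n = 4 each). For each member mdx/miR-133b-/- and mdx overlapped, as did miR-133b-/- and Control.

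**Figure D1:**
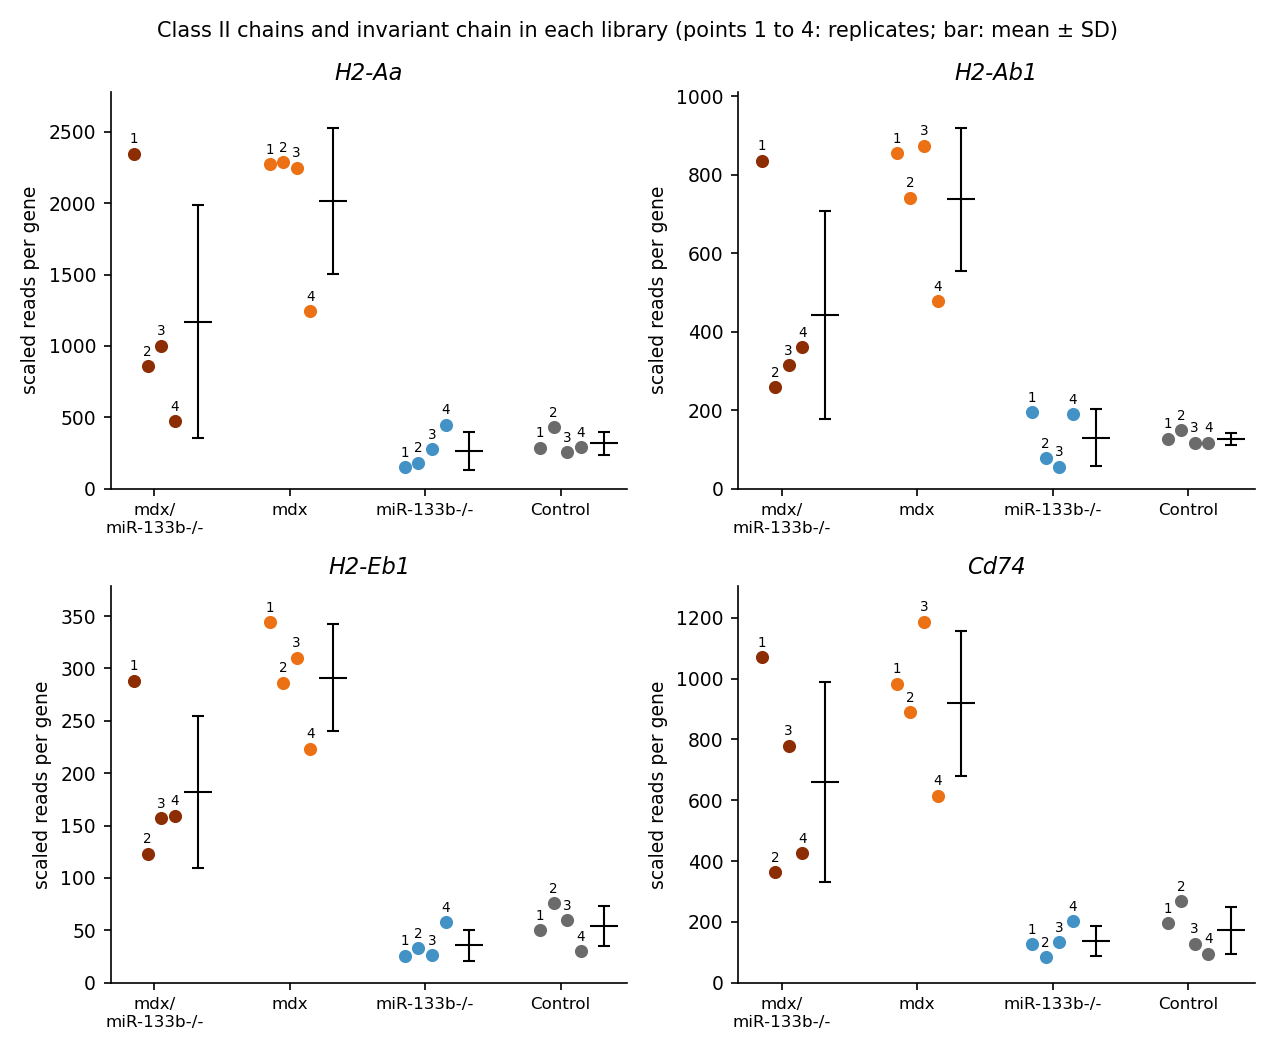
Scaled reads (linear axis) of H2-Aa, H2-Ab1, H2-Eb1 and Cd74 in each of the 16 libraries, by group; points 1 to 4 are replicates and the bar is the mean ± SD. The 8 libraries with the mdx mutation lie above the 8 without it in each panel, a split partly favoured by the selection of the listed genes on mdx/miR-133b-/- against miR-133b-/-. The first mdx/miR-133b-/- library lies above the other 3 of its group.

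Per kilobase of merged exon, a scale on which genes can be set side by side, the order of the members differed from that in scaled reads. In mdx, Cd74 averaged 547 ± 141 and H2-Aa 530.3 ± 135 scaled reads per kilobase (SD, n = 4), which overlap. H2-Ab1 averaged 287 ± 71.1 and H2-Eb1 150 ± 26.2 on that scale. In Control, Cd74 stood at 102 ± 45.8 and H2-Aa at 83.2 ± 20.6, above H2-Ab1 at 49.4 ± 5.90 and H2-Eb1 at 27.7 ± 9.89 scaled reads per kilobase. The lengths used include every annotated exon, so these levels depend on the annotation.

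Loss of dystrophin alone was read from mdx against Control, whose means use no library of the pair on which the listed genes were selected. The SE and adjusted p come from a fit over all 16 libraries, that pair included. All 4 members rose. H2-Aa rose 6.30-fold, with 2014 ± 513 scaled reads in mdx against 316 ± 78.2 in Control (log2 fold change 2.65, SE 0.39; limma adjusted p = 4.0e-05). H2-Ab1 rose 5.64-fold, with 737 ± 182 in mdx against 127 ± 15.1 in Control (log2 2.50, SE 0.38). H2-Eb1 averaged 291 ± 51.0 in mdx and 53.9 ± 19.2 in Control, and Cd74 averaged 919 ± 238 and 172 ± 76.9 (SD, n = 4 each). Their log2 fold changes were 2.47 (SE 0.32) and 2.48 (SE 0.36). The values of the 4 members, from 2.47 to 2.65, lay closer together than the standard error of any of them.

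Those 4 calls have to be read against a list where rises are common: limma called 44.5% of the 831 listed genes higher in mdx. The mdx values lay wholly above those of Control in all 4 members, and in 46.2% of listed genes. The median log2 fold change was 2.49 for the members and 0.44 for all listed genes. Between 33 and 48 listed genes had a larger log2 fold change than each member. Scaling moved the whole list. The authors' factors gave 370 genes called higher and 180 lower. Relative log expression factors gave 260 higher and 270 lower, with a median over all genes of 0.09, and scaling to the total of listed reads gave 478 higher and 33 lower, with a median of 0.95. Each member passed under both, and relative to the median of all genes its log2 fold change stayed between 2.02 and 2.21.

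Loss of both products was read from mdx/miR-133b-/- against Control. All 4 members rose here too, where 54.3% of listed genes were called higher and the listed genes had been selected on the mdx/miR-133b-/- libraries. H2-Aa averaged 1170.4 ± 816 scaled reads in mdx/miR-133b-/- and 316 ± 78.2 in Control, a log2 fold change of 1.67 (SE 0.39; limma adjusted p = 0.000704). The log2 fold change was 1.64 (SE 0.38) for H2-Ab1, 1.74 (SE 0.32) for H2-Eb1 and 1.91 (SE 0.36) for Cd74. These are folds of 3.19 for H2-Aa, 3.11 for H2-Ab1, 3.33 for H2-Eb1 and 3.75 for Cd74. They moved by more than 1.5 times when scaled to the total of listed reads, to log2 values of 2.41 to 2.68, and H2-Ab1 (2.51) and Cd74 (2.67) did so with the trend on GC content and length removed. All 4 passed in both. The split of calls moved from 451 higher and 307 lower with the authors' factors to 323 and 332 with relative log expression factors, and to 503 and 51 with the total of listed reads.

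The ratio of mdx/miR-133b-/- to miR-133b-/- means chose the listed genes, so it is given without a test. It was 4.46 for H2-Aa, 3.41 for H2-Ab1, 5.09 for H2-Eb1 and 4.83 for Cd74. Between 86 and 152 listed genes had a higher ratio than each member.

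The effect of losing miR-133b where dystrophin is present was read from miR-133b-/- against Control. None of the 4 members passed, and limma called 0 of the 831 genes (0%), with 84 at an unadjusted p under 0.05; limma-voom on the recovered reads also called 0. H2-Eb1 averaged 35.8 ± 15.01 scaled reads in miR-133b-/- and 53.9 ± 19.2 in Control, a log2 difference of -0.58 (95% interval -1.26 to 0.10; limma adjusted p = 0.563). The difference was -0.37 for H2-Aa (-1.17 to 0.44), -0.29 for Cd74 (-1.03 to 0.46) and -0.17 for H2-Ab1 (-0.95 to 0.62). The intervals span differences of either sign. That of H2-Ab1 was 0.17 without the third miR-133b-/- library and 0.01 without the second.

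What the loss of miR-133b added in dystrophic muscle was read from mdx/miR-133b-/- against mdx, groups that share a selection on the mdx/miR-133b-/- libraries. No member passed, in a comparison where 12.0% of listed genes were called lower, and in which the values lay wholly below those of mdx in 16.2% of listed genes but in none of the members. H2-Aa averaged 1170.4 ± 816 scaled reads in mdx/miR-133b-/- and 2014 ± 513 in mdx, a log2 difference of -0.98 (95% interval -1.79 to -0.18; limma adjusted p = 0.0842). H2-Ab1 averaged 442 ± 265 in mdx/miR-133b-/- and 737 ± 182 in mdx, a difference of -0.86 (-1.65 to -0.07; limma adjusted p = 0.122). H2-Eb1 stood at -0.73 (-1.41 to -0.05; limma adjusted p = 0.124) and Cd74 at -0.58 (-1.32 to 0.17; limma adjusted p = 0.284). The median log2 difference was -0.79 for the members and -0.04 for all listed genes. The authors' factors gave 62 genes called higher and 100 lower in this comparison, and scaling to the total of listed reads 68 and 24. The 100 lower calls fell to 29 without the third mdx library and to 31 without mdx/miR-133b-/- library 4, and with any 1 library left out they numbered 29 to 129.

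No member was called with all 16 libraries, and whether members passed changed with a single library, the first of mdx/miR-133b-/-. It was the highest of its group for each member, so leaving it out had to deepen each difference. Without the first mdx/miR-133b-/- library, limma called H2-Aa (-1.40, adjusted p = 0.00853), H2-Ab1 (-1.22, 0.0201) and H2-Eb1 (-0.98, 0.0376) lower, and Cd74 (-0.85, 0.0898) did not pass. Lower calls over all listed genes numbered 129 without that library, against 100 with it. The differences of H2-Ab1 and Cd74 were -0.30 and -0.08 with the GC and length trend removed, while that of H2-Aa was -1.07. How far the 2 effects of miR-133b loss differ, with and without the mdx mutation, was taken as an interaction, which was -0.61 for H2-Aa (95% interval -1.75 to 0.52), -0.69 for H2-Ab1 (-1.81 to 0.42), -0.15 for H2-Eb1 (-1.11 to 0.81) and -0.29 for Cd74 (-1.34 to 0.77). None passed, and limma called 0.842% of listed genes lower. That share rests on 7 genes, and without the second miR-133b-/- library 76 genes were called lower, with no member among them. The sign of H2-Eb1 turned when scaled to the total of listed reads (0.12) and with the GC and length trend removed (0.14), where that of Cd74 turned too (0.17).

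**Figure D2:**
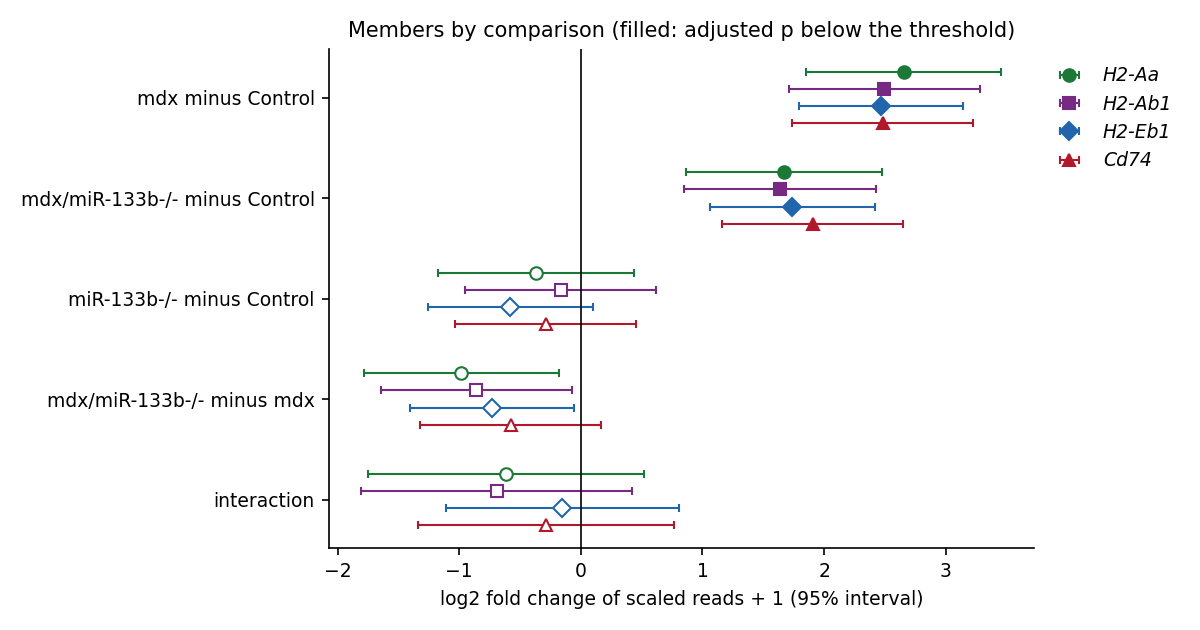
Log2 fold change of each member in each comparison, with its 95% interval; filled symbols passed the limma test. The members stand near 2.5 in mdx minus Control and near 1.7 in mdx/miR-133b-/- minus Control, and the symbols of the other comparisons are open.

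The ratio of H2-Aa to its partner H2-Ab1 in the same library, which no scaling factor affects, ran from 1.31 to 3.33 in mdx/miR-133b-/- and from 2.57 to 3.09 in mdx. It ran from 0.764 to 4.99 in miR-133b-/- and from 2.19 to 2.90 in Control, so the ranges of mdx and Control were the narrower ones. The extremes were the first miR-133b-/- library, the only library with more H2-Ab1 than H2-Aa, and the third. Relative to Cd74, the mean log2 ratio of H2-Aa was 0.72 ± 0.55 in mdx/miR-133b-/- against 1.13 ± 0.20 in mdx, and in Control it was 0.95 ± 0.46 (SD, n = 4 each). Of 9 such ratios compared (H2-Aa, H2-Ab1 and H2-Eb1 over Cd74 in 3 pairs of groups), none passed an exact two-sided permutation test, where the smallest p was 0.286 and each adjusted p was 1. The smallest p that 4 against 4 libraries allow is 0.0286.

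Within groups the same libraries tended to be high or low for several members, though the highest library of mdx differed between members. The first mdx/miR-133b-/- library was the highest of its group for all 4, mdx library 4 the lowest, and the second Control library the highest. In mdx the highest library was number 2 for H2-Aa, number 3 for H2-Ab1 and Cd74 and number 1 for H2-Eb1. In miR-133b-/- the highest library was number 4 for H2-Aa, H2-Eb1 and Cd74 and number 1 for H2-Ab1. The spread between replicates of H2-Aa, as SD on the log2 scale, was 0.95 in mdx/miR-133b-/-, 0.43 in mdx, 0.70 in miR-133b-/- and 0.33 in Control. For H2-Ab1 the SD was 0.74 in mdx/miR-133b-/-, 0.40 in mdx, 0.91 in miR-133b-/- and 0.16 in Control.

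Genes of the cells that carry class II were read from fixed lists, of which only part is in the table. Of 20 macrophage genes 11 are listed, and 10 of them rose in mdx against Control, where 44.5% of all listed genes were called higher. The table holds only genes selected on mdx/miR-133b-/- against miR-133b-/-, so the count does not cover the rest of the 20. The median log2 fold change over all 11 was 2.48. Ms4a7, a membrane protein of macrophages, averaged 165 ± 33.1 scaled reads in mdx and 10.6 ± 7.29 in Control (log2 4.10, SE 0.58), and C1qb, a chain of complement C1q, 237 ± 70.02 and 48.0 ± 5.02 (2.24, SE 0.32). Mrc1, the mannose receptor of resident macrophages, stood at 0.33 and did not pass. Summed over the 11, the list held 6207 to 9637 scaled reads in mdx and 1474 to 2185 in Control, and no listed gene of it was at 0. The part of these changes in the members' values was not tested.

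Between mdx/miR-133b-/- and mdx the macrophage sum and the class II sum differed in how they were spread. The macrophage list summed to 10609, 3774, 13069 and 9674 scaled reads in the mdx/miR-133b-/- libraries 1 to 4, and to 6207, 7344, 9637 and 6508 in mdx. The 4 members together summed to 4541, 1604, 2252 and 1418 in mdx/miR-133b-/-, against 4457, 4207, 4619 and 2560.0 in mdx. Per 100 macrophage-list reads that is 42.8, 42.5, 17.2 and 14.7 of class II in mdx/miR-133b-/-, against 71.8, 57.3, 47.9 and 39.3 in mdx. The mdx/miR-133b-/- libraries 3 and 4 thus had less class II for their macrophage-list reads than any library of the other groups, where the ratio ran from 23.1 to 49.9 in miR-133b-/- and from 30.2 to 51.2 in Control. Lyz2, lysozyme M, was a large part of the list sum, with 7409.8 of 13069 scaled reads in mdx/miR-133b-/- library 3 and 4834 of 9674 in library 4. Ccr2, another gene of the list, had 1261 and 2381 in these libraries, against 560 to 924 in mdx. C1qa, also of the list, had 69.9 and 42.1 in these libraries, against 134 to 207 in mdx, and so was low where the members were. Its partner chains were not low in both: C1qb had 290 and 149, against 162 to 327 in mdx. C1qc had 202 and 108, against 129 to 220 in mdx. Both lay inside the mdx range in library 3 and below it in library 4. The ratios to the sum thus depend on the genes in it. Against Adgre1, the gene of F4/80, H2-Aa stood at 1.57 to 5.64 reads per read in mdx/miR-133b-/-, overlapping 4.65 to 8.71 in mdx. The mdx/miR-133b-/- libraries 3 and 4 were the lowest of their group here too. They had 1001 and 473 scaled reads of H2-Aa and 504 and 301 of Adgre1. The lowest ratio to Adgre1 was 2.29 in miR-133b-/- and 4.28 in Control. These denominators were set beside the members with their values known, so the ratios are given with no test.

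**Figure D3:**
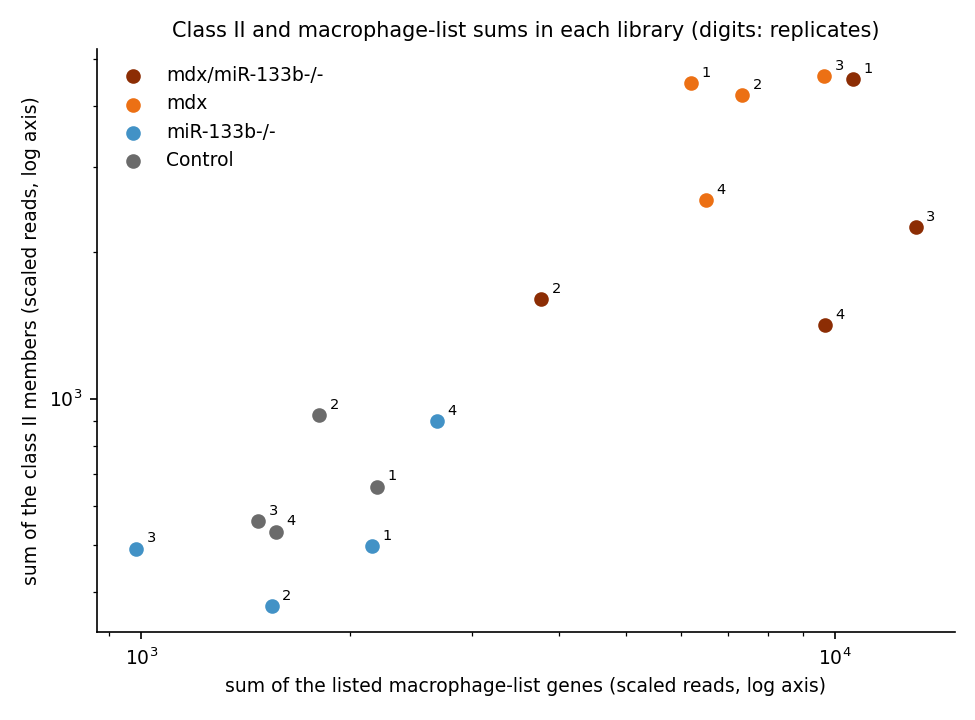
Sum of the 4 members against the sum of the 11 listed macrophage-list genes in each library (scaled reads, both axes logarithmic); colours give groups and digits replicates. Libraries of mdx/miR-133b-/- and mdx lie at the upper right, and mdx/miR-133b-/- libraries 3 and 4 lie low for their macrophage sums.

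Dendritic and B cells are the other professional class II cells. Of 15 dendritic cell genes only Itgax, the integrin CD11c that some macrophages also carry, is listed. It had 119, 13.3, 189 and 41.5 scaled reads in mdx/miR-133b-/-, against 81.4, 119, 111 and 96.5 in mdx. In miR-133b-/- it had 4.0, 1.43, 0 and 7.58, against 8.58, 3.79, 5.12 and 1.49 in Control, and it rose in mdx against Control (log2 4.31, SE 0.77; limma adjusted p = 0.0002). The third mdx/miR-133b-/- library was thus the highest of all for Itgax and below every mdx library for the class II chains. Of 13 B cell genes only Ighm, the heavy chain of IgM, is listed. It ran from 38.4 to 122 scaled reads in mdx/miR-133b-/-, from 102 to 312 in mdx, from 189.9 to 1108 in miR-133b-/- and from 184 to 1230 in Control. Ighm fell in mdx/miR-133b-/- against mdx (log2 -1.64, SE 0.55; limma adjusted p = 0.0419) and did not pass in mdx against Control (-1.13, limma adjusted p = 0.0763), where the class II genes rose. No T cell gene of 12 is listed, and the parts of these cell types in the class II values were not tested.

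The listed genes of processing around the class II molecule also rose in mdx. Of 13 genes of endosomal processing 4 are listed, and all 4 rose in mdx against Control, where 44.5% of all listed genes were called higher. Their median log2 fold change was 1.31, against 2.49 for the members. The rest of the 13 are not in the selected table and could not be counted. Ctss, cathepsin S, which trims the invariant chain, averaged 589 ± 208 scaled reads in mdx and 51.5 ± 51.1 in Control (SD, n = 4 each; log2 3.84, SE 0.60). Lgmn, an asparaginyl endopeptidase, averaged 1708 ± 317 in mdx and 702 ± 60.1 in Control (1.27, SE 0.23). Ctsh (1.35, SE 0.25) and Ctsz (0.84, SE 0.22), both cathepsins, rose too. In mdx/miR-133b-/- against mdx none of the 4 passed: their log2 differences ran from -0.33 to 0.02. Ctss varied widely between libraries there, from 121 to 906 scaled reads in mdx/miR-133b-/- and from 434 to 884 in mdx.

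Of 12 genes of costimulation and T cell contact, Itgb2, the beta-2 integrin of leukocytes, and Cd48, a ligand on leukocytes, are listed. Both rose in mdx against Control, where 44.5% of all listed genes were called higher. Their log2 fold changes were 2.69 (SE 0.44) for Itgb2 and 2.34 (SE 0.44) for Cd48. Neither passed in mdx/miR-133b-/- against mdx (0.24 and -0.34). Interferon gamma is the main inducer of class II in cells that lack it at rest, and 2 of 19 interferon response genes are listed. Oas2, an antiviral enzyme, rose in mdx against Control (1.62, SE 0.31). Cxcl9, a chemokine that interferon gamma induces, averaged 92.5 ± 35.97 scaled reads in mdx/miR-133b-/-, 56.8 ± 14.0 in mdx, 25.0 ± 7.54 in miR-133b-/- and 35.3 ± 21.1 in Control. It did not pass in mdx against Control (0.81, limma adjusted p = 0.0773), and passed in mdx/miR-133b-/- against Control (1.46, limma adjusted p = 0.00226). No gene of the class II transcription list (10 genes, Ciita and Rfx5 among them) or of the class I list (24 genes) is in the table, and neither was analysed here. Of the class II chains and chaperones the other 6 of 10, among them H2-DMa and H2-Oa, were likewise not analysed here.

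Some muscle genes fell where the class II genes rose. Of the 4 listed fast-fibre genes, Ckm, muscle creatine kinase, and Myh4, the fast IIb myosin heavy chain, fell in mdx against Control by 0.45 (SE 0.19) and 0.60 (SE 0.26) on the log2 scale. Actn3 (-0.52) and Pvalb (-0.22) did not pass (limma adjusted p = 0.0514 and 0.383). Over all 831 listed genes, 180 were called lower in mdx against Control. Flt1, a vascular growth factor receptor and the only listed one of 8 endothelial genes, fell by 0.75 (SE 0.19). In mdx/miR-133b-/- against mdx, 3 of the 4 fast-fibre genes fell, where 12.0% of all listed genes were called lower. The listed genes were selected on the mdx/miR-133b-/- libraries. The sum of the 4 fast-fibre genes ran from 256312 to 320334 scaled reads in mdx/miR-133b-/- and from 375355 to 552424 in mdx.

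**Figure D4:**
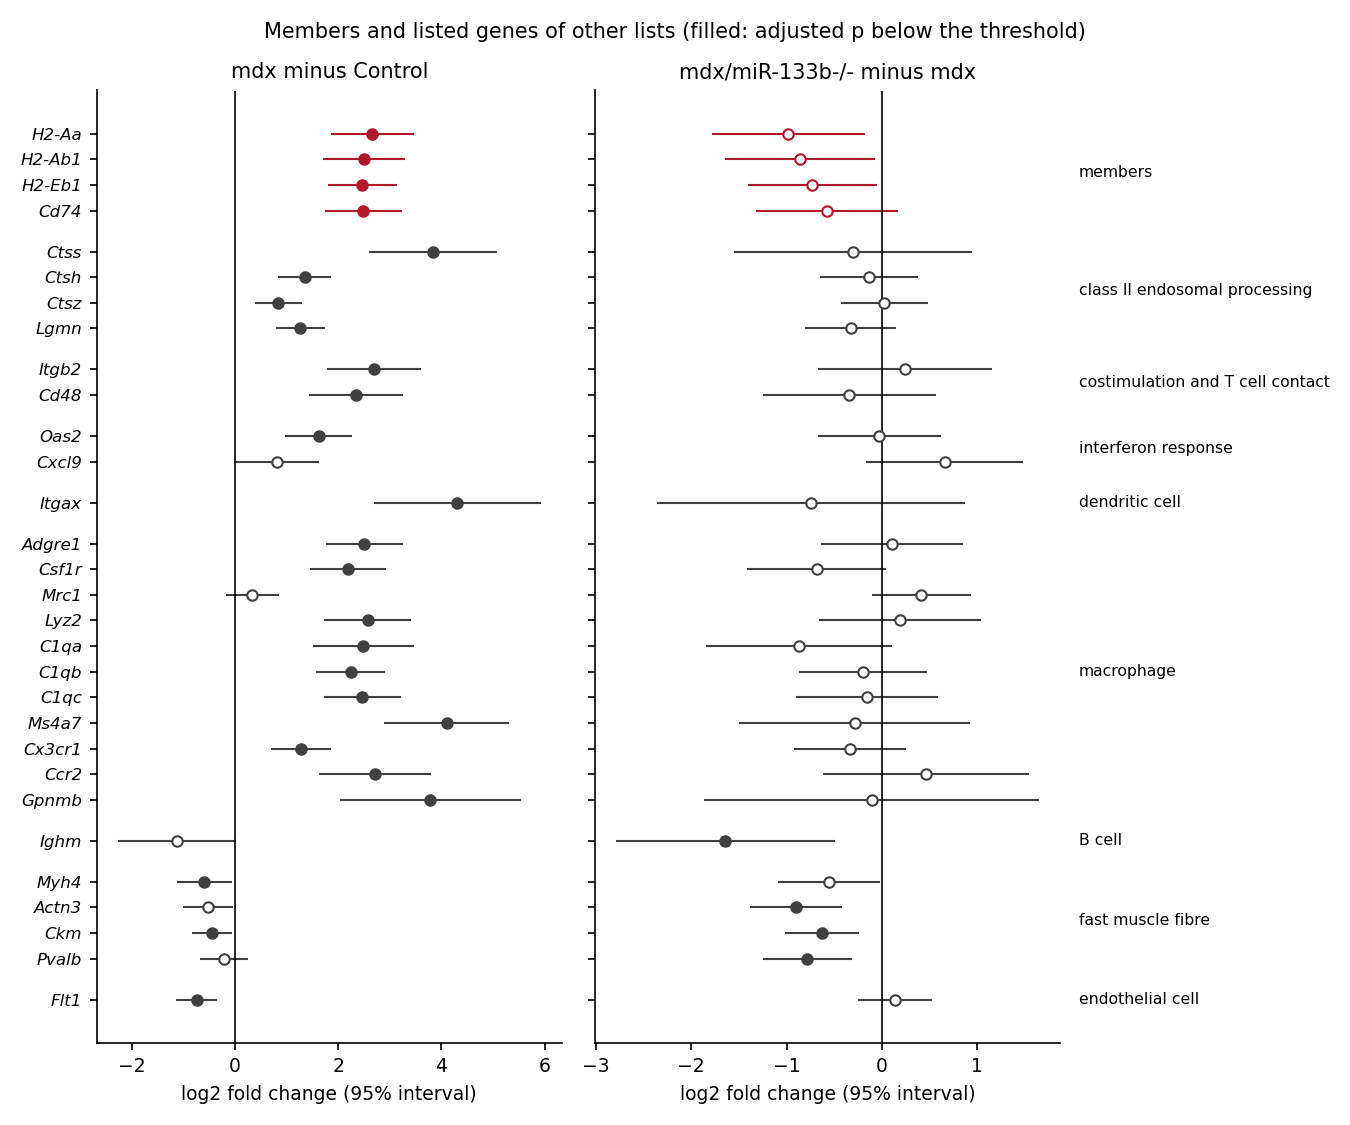
Log2 fold change with its 95% interval for the members (red) and the listed genes of the other lists (grey) in mdx minus Control (left) and mdx/miR-133b-/- minus mdx (right); filled symbols passed the limma test. In the left panel all immune genes but Cxcl9, Mrc1 and Ighm are filled and to the right of 0, and in the right panel only Ighm and 3 fast-fibre genes are filled.

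The listed gene whose profile lay closest to the mean of the 4 members was Csf1r, the receptor for the macrophage growth factor CSF-1. Its log2 values, centred on the gene's own mean, differed from the members' mean profile by a root mean square of 0.31 over the 16 libraries, which 8 libraries with and 8 without the mdx mutation dominate. The members themselves differed from their mean by 0.22 (Cd74), 0.23 (H2-Eb1), 0.30 (H2-Aa) and 0.34 (H2-Ab1), a mean they are part of. The next closest were C1qa, a complement chain (0.39), Fcgr2b, the inhibitory IgG receptor (0.39), C1qb (0.41), Arhgap45 (0.42), and Cd83, a surface protein of activated antigen-presenting cells (0.43). Csf1r averaged 323 ± 164 scaled reads in mdx/miR-133b-/-, 465 ± 65.2 in mdx, 71.0 ± 37.5 in miR-133b-/- and 101 ± 14.7 in Control (SD, n = 4 each). It rose in mdx against Control (log2 2.19, SE 0.35) and stood at -0.69 in mdx/miR-133b-/- against mdx (limma adjusted p = 0.185). Cd83 averaged 110 ± 20.8 in mdx and 35.0 ± 10.5 in Control (1.65, SE 0.38).

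Other listed genes of the same region did not share 1 pattern. Within 2 Mb of the start of H2-Ab1, 7 other genes are listed. C4b, complement component 4 (log2 1.31), Myo1f, a myosin of leukocytes (2.14), and Angptl4, an inhibitor of lipoprotein lipase (1.97), rose in mdx against Control. Cyp4f39, a cytochrome P450, and Hspa1l, a heat shock protein, fell by 0.99 and 0.78. Csnk2b, the regulatory subunit of casein kinase 2 (0.12), and Zfp81, a zinc finger protein (-0.08), did not pass. In mdx/miR-133b-/- against mdx, Csnk2b fell by 0.93 and Zfp81 rose by 1.03, and the other 5 did not pass.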

How the data were processed

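Each of the 16 libraries is RNA of whole tibialis anterior. Per the submitters' processing notes, HISAT2, HTSeq and GRCm38 were used; their versions and the strand setting are not given. The authors deposited 1 table of signal values for 831 genes, read counts multiplied by 1 factor per library (0.459 to 1): dividing by it gave whole numbers, within 0.001 read, for 100% of values. Symbols and coordinates come from GENCODE M21 (831 of 831 identifiers matched), promoter windows from RefSeq for 2 of the 4 members.

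Log2(value + 1) was fitted over all genes with limma 3.58.1 (R 4.3.3), 1 mean per group, trended empirical Bayes and adjusted p (Benjamini-Hochberg) under 0.05, without a filter; library sizes cannot be estimated from a selected list, so a count model was not the main test, and folds on this scale understate the change of low genes. Ratios between members used exact permutation tests (SciPy 1.17.1). Members, gene lists and tests were chosen with earlier results of these data known. Named were the members and the listed genes of the class II, class I, costimulation, interferon and dendritic lists. Of each other list the genes with the 2 smallest p-values in mdx against Control were named. The 6 closest profiles and all listed genes within 2 Mb of H2-Ab1 were named too. Mrc1, Lyz2, Adgre1, Ccr2, C1qc, Actn3 and Pvalb were named after their values were seen. No pair of libraries within a group looked like 1 library deposited again (lowest chi-square per degree of freedom 38.7 in 24 pairs). Alternatives covered scaling, pseudocounts of 0.5 and 10, an untrended fit, genes with a mean of at least 100, only the groups compared, a replicate block, limma-voom, GC content and length, each library left out, and grouping by description.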

Additional observations from a re-analysis of the deposited data

Results flagged for a closer look

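Among 28 sets of 4 libraries checked (each member in each group, and its ratio to Cd74), 2 held a library far from the other 3 by Dixon's gap over the range, where chance gives about 1 in 20. H2-Aa in mdx had its lowest library, the fourth, at 1244 scaled reads against 2248 to 2290 in the other 3 (gap over range 0.960). That library was also the lowest of mdx for H2-Ab1, H2-Eb1 and Cd74, and its macrophage-list sum, 6508, lay within the range of the other mdx libraries. The log2 ratio of H2-Aa to Cd74 in miR-133b-/- had its lowest library, the first, at 0.24, against a highest of 1.13 (gap over range 0.891).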

How the results depend on the processing

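All 4 members passed in mdx against Control, and in mdx/miR-133b-/- against Control, in every alternative run but 1, with log2 fold changes from 2.12 to 3.16 and from 1.24 to 2.68. The exception was grouping by the description field, which mixes the title groups: 0 members passed in either. The log2 differences of H2-Aa, H2-Ab1, H2-Eb1 and Cd74 were then -0.13, -0.82, -0.18 and -0.18 in mdx against Control, and -0.40, -0.55, -0.27 and -0.59 in mdx/miR-133b-/- against Control. H2-Ab1 then stood at 0.27 in mdx/miR-133b-/- against mdx, and the interaction at 1.02 (H2-Ab1), 0.058 (H2-Eb1) and 0.046 (Cd74). In miR-133b-/- against Control and in the interaction 0 members passed in every alternative run. The interaction of H2-Eb1 was 0.12 when scaled to the total of listed reads and, without the GC and length trend, 0.14, where Cd74 stood at 0.17. With 1 library left out, 0 to 3 members passed in mdx/miR-133b-/- against mdx, H2-Ab1 in miR-133b-/- against Control ran from -0.43 to 0.17, and the interaction of H2-Eb1 from -0.40 to 0.10. The 9 log2 ratios to Cd74 did not pass in any alternative run, and 5 of them changed sign with 1 library left out. In mdx against Control that of H2-Ab1 ran from -0.16 to 0.22 and that of H2-Eb1 from -0.12 to 0.17 (0.00397 with no pseudocount). In miR-133b-/- against Control that of H2-Aa ran from -0.21 to 0.13 and that of H2-Ab1 from -0.16 to 0.47, and in mdx/miR-133b-/- against mdx that of H2-Eb1 from -0.28 to 0.015. The cause of these changes was not tested. In mdx/miR-133b-/- against mdx 162 genes passed, against 92 scaled to the total of listed reads, 55 without the GC and length trend, 0 grouped by description and 49 to 197 with 1 library left out. In the interaction 8 genes passed, against 14 with relative log expression factors, 4 with a mean of at least 100, 0 grouped by description and 7 to 110 with 1 library left out. The labels do not say whether the replicate numbers pair the samples. Correlations of same-numbered deviations ran from -0.283 to 0.155. Differently numbered libraries were not set beside them, so they cannot settle it. With the replicate block 4 members passed in mdx against Control and in mdx/miR-133b-/- against Control and 0 in the other comparisons. The planned count model on recovered reads was not run, so no count model stands beside limma and limma-voom. Low groups rest on few reads, down to 26 for H2-Eb1.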
